A study of Mus musculus with 4 samples.

Results

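Transcripts of 9 lung epithelial genes were followed in libraries of sorted activated lung ILC2s: the surfactant protein genes Sftpa1, Sftpb, Sftpc and Sftpd, the alveolar type 2 cell genes Lamp3 and Napsa, the alveolar type 1 cell gene Ager, and the airway secretoglobin genes Scgb1a1 and Scgb3a2. The genes were chosen by symbol, and all 9 were found among the 22558 genes of the count table. ILC2s are lymphocytes without antigen receptors that make type 2 cytokines. There were 4 RNA sequencing libraries, of which 2 came from WT (C57BL/6) animals and 2 from animals labelled ICAM-1 KO, described in the study's methods as carrying the constitutive Icam1 allele B6.129S4-Icam1 tm1Jcgr/J, which is not limited to 1 cell type. Each library was a pool of 4 mice, 6 weeks old. All mice, WT included, were challenged intranasally with 0.5 µg rmIL-33 on 3 days, and lungs were taken on day 4. The sort kept CD45+ cells that lacked lineage markers and carried ST2 and CD127, a gate in which epithelial cells, which lack CD45, are not meant to fall.

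Surfactant is the film of phospholipid and protein that lowers surface tension at the air surface of the alveolus. It is made by alveolar type 2 cells, which store it in lamellar bodies; the hydrophobic proteins SP-B and SP-C spread the lipid film, whereas SP-A and SP-D are collectins, soluble lectins that bind microbes. Alveolar type 1 cells form the thin wall for gas exchange, and club cells of the conducting airway secrete secretoglobins.

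Depth ran from 24796148 to 28782471 counts per library. Of 11711 genes tested, 578 were called higher (4.94%) and 63 lower (0.538%) in ICAM-1 KO, where a call needed a Benjamini-Hochberg adjusted p under 0.05 by the quasi-likelihood test of edgeR as well as a change of at least 2-fold, and the median log2 fold change was 0.01. Icam1, the targeted gene, was not lower under the label ICAM-1 KO, at 2579 and 2630 counts in WT against 2812 and 3453 (log2 fold change 0.33, standard error 0.108, edgeR adjusted p = 0.0745). The groups are therefore named by their labels. From flow cytometry of lung ILC2s, the paper reports that its ICAM-1 deficient mice lack the ICAM-1 protein. The RNA level of Icam1 does not measure that protein. Replicates were libraries of separate pools, so p-values measure the spread between 2 pools per group.

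The promoters of 4 of the 9 genes, taken from the RefSeq table of GRCm38.p6, were searched. Those of Sftpa1, Sftpb and Lamp3 are shown because they held a searched motif. These 3 genes were called higher, by unlike amounts. Ager, whose promoter held none, also had both ICAM-1 KO libraries above both WT libraries. The promoters of the other members, Scgb1a1 and Scgb3a2 among them, were not searched. Promoters of members that rose were therefore not compared with those of members that were not called. Each line gives the 250 bases before the start of the gene in RefSeq, 5′ to 3′ on the strand of the gene. The RefSeq starts of Sftpa1 and Lamp3 lie a few bases inside the spans given for these genes from the count table. Capitals mark 4 motifs. CTCAAG is the core of sites bound by NKX2-1, a lung epithelial factor, and was searched on both strands. The motif TGTTTAC is bound by FOXA factors, as is the motif TGTTTGC, and both strands were searched for these as well. TATAAA, the letters of the box near which transcription starts, was searched on the sense strand. No 2 of the matches overlap.
Sftpa1: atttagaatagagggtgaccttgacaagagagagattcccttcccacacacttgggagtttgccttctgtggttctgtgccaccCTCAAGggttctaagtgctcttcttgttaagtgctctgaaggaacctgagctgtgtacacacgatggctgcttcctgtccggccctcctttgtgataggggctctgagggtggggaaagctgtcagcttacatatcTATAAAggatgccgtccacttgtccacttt
Sftpb: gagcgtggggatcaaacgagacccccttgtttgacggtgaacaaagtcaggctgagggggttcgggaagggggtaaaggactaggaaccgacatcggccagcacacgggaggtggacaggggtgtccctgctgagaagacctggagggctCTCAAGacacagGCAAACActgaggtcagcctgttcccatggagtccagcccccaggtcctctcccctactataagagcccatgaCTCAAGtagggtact
Lamp3: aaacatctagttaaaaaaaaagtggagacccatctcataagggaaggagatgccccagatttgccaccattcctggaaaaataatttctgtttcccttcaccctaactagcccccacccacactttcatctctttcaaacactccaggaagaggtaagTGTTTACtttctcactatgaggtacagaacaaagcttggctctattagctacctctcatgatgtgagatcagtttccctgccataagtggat
These windows lie at chr14:41131538-41131787 on the plus strand (Sftpa1), chr6:72304360-72304609 on the plus strand (Sftpb) and chr16:19706366-19706615 on the minus strand (Lamp3). Sftpa1 held CTCAAG at 166 to 161 bases and TATAAA at 30 to 25 bases before the start. Sftpb held CTCAAG at 100 to 95 and at 15 to 10 bases, and GCAAACA, the reverse complement of TGTTTGC, at 88 to 82 bases. Lamp3 held TGTTTAC at 92 to 86 bases. Over 32851 promoters of the same length, 13.3% held CTCAAG, 3.17% TGTTTAC, 4.3% TGTTTGC and 7.59% TATAAA. The C/EBP motif TTGCNNAA, in 9.56% of promoters, was not in these 3 windows, and the Ager window held none of the 5 motifs. A match of letters is a description and does not show binding.

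The question here was whether the RNA of surfactant and secretory genes differed between the WT libraries and those labelled ICAM-1 KO. All 4 surfactant protein genes, Lamp3 and Napsa were higher in both ICAM-1 KO libraries, from 2.08-fold for Napsa to 39.5-fold for Lamp3. Both secretoglobin genes overlapped between the groups and were not called. In bulk RNA, fewer cells of a type and less RNA per cell cannot be told apart.

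Sftpc, which encodes SP-C and is a defining marker of alveolar type 2 cells, had 731 counts in WT 1 and 17 in WT 2, against 7290 in ICAM-1 KO 1 and 16847 in ICAM-1 KO 2. Both libraries labelled ICAM-1 KO lay above both WT libraries, and WT 2 was by far the lowest. The mean normalized counts were 12.4 ± 16.7 (SD, n = 2) for WT and 395 ± 201 (SD, n = 2) for ICAM-1 KO, which gave a log2 fold change of 5.05 (standard error 0.769, edgeR adjusted p = 0.00477). The WT libraries differed 42.4-fold from each other in normalized count, where the median gene tested differed 1.13-fold and the 95th percentile was 1.89-fold. Without WT 2 the log2 fold change of Sftpc was 4.06, and without WT 1 it was 9.54. The gene spans chr14:70520949-70524081 of mm10 on the minus strand.

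Sftpa1, which encodes the collectin SP-A, had 962 and 727 counts in WT, against 3212 and 6916 in ICAM-1 KO. The groups did not overlap, and the WT pair differed only 1.38-fold in normalized count. The log2 fold change was 2.63 (standard error 0.302, edgeR adjusted p = 0.00146). Sftpd, the gene of the collectin SP-D, lies 35761 bases from Sftpa1 on chromosome 14, with no other gene of the count table between them. It had 126 and 61 counts in WT, against 382 and 1093 in ICAM-1 KO, again without overlap (log2 fold change 3.03, standard error 0.538, edgeR adjusted p = 0.00934). Sftpd was at 2.57 on the log2 scale without WT 2 (adjusted p = 0.0629), 3.67 without WT 1 and 2.15 without ICAM-1 KO 2. In mm10, Sftpa1 spans chr14:41131782-41136452 on the plus strand and Sftpd chr14:41172214-41185149 on the minus strand.

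Sftpb, the gene of SP-B, without which lamellar bodies do not form normally, spans chr6:72304610-72314371 on the plus strand. Its RNA was at 39 counts in WT 1, none in WT 2, and 197 and 534 counts in ICAM-1 KO. A count of 0 among the 28782471 counts of WT 2 allows a share of up to 1.28e-05% of counts (upper limit of the exact 95% Clopper-Pearson interval), or 1.04e-05% where 3 counts are taken as the floor. The groups did not overlap, and the log2 fold change was 4.28 (standard error 0.786, edgeR adjusted p = 0.0106). The mean normalized count of Sftpb in WT was below the filter limit of 1, so it was tested only through its level in ICAM-1 KO. The call was lost without WT 2 (log2 fold change 3.25, adjusted p = 0.0571) and with DESeq2 (adjusted p = 0.3), in a range of adjusted p from 2.66e-07 to 0.3 over the fits that held the gene. A filter of at least 10 counts in every library removed both Sftpb and Lamp3.

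**Figure D1:**
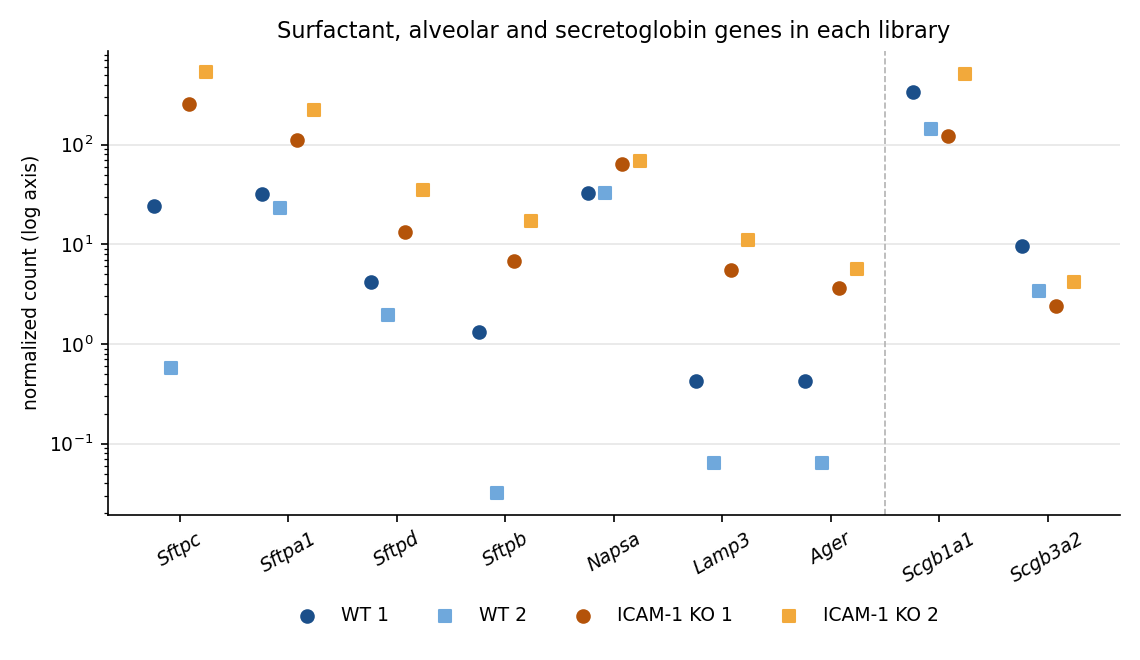
Normalized count (log axis) of the 9 genes in each of the 4 libraries, 1 point per library, with the 2 secretoglobin genes right of the dashed line. The 2 libraries labelled ICAM-1 KO lie above both WT libraries for the 7 alveolar genes, while the groups overlap for Scgb1a1 and Scgb3a2. A count of 0, as for Sftpb in WT 2, is drawn at 0.0317, because the deposited values add 1 count before scaling.

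Napsa encodes napsin A, an aspartic protease that trims the SP-B precursor, and spans chr7:44572380-44586862 on the plus strand. Napsa had 985 and 1036 counts in WT, against 1849 and 2164 in ICAM-1 KO. The groups did not overlap, and it had the smallest change and the tightest replicates of the 6 members called, 1.01-fold apart in WT and 1.07-fold apart in ICAM-1 KO. Its log2 fold change was 1.05 (standard error 0.125, edgeR adjusted p = 0.00155). Without ICAM-1 KO 2 its change was 0.99 on the log2 scale, just under 2-fold. WT 2 held 1036 counts of Napsa beside 17 of Sftpc and 1 of Lamp3, so Napsa did not follow these genes in WT. The ratio of Napsa to Sftpc was 1.35 and 60.9 in WT and 0.254 and 0.128 in ICAM-1 KO. Which cells held the RNA of Napsa was not tested. Exons of Napsa overlap those of the antisense gene Gm15396, which had 0, 2, 2 and 5 counts in the same order of libraries.

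Lamp3 encodes a lysosomal membrane protein found on lamellar bodies and in mature dendritic cells, and spans chr16:19653378-19706375 on the minus strand. It had 12 and 1 counts in WT, against 158 and 344 in ICAM-1 KO, with no overlap. The log2 fold change was 5.3 (standard error 0.78, edgeR adjusted p = 0.00346), and the gene also reached the filter only through its level in ICAM-1 KO. The log2 fold change of Lamp3 was 4.4 without WT 2 and 7.88 without WT 1. Ager (chr17:34597862-34600936, plus strand) encodes RAGE, a receptor abundant on the basal side of alveolar type 1 cells, and had 12 and 1 counts in WT, against 103 and 177 in ICAM-1 KO. The groups did not overlap, but its summed normalized count of 9.77 was below the limit of 10 and it was not tested in the reported fit. With no filter on low counts its log2 fold change was 4.42 (standard error 0.753, edgeR adjusted p = 0.0424).

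Over the genes together, 6 of the 8 tested were called higher, against 4.94% of all genes tested, and 7 of the 9 had both ICAM-1 KO libraries above both WT libraries, against 28.3% of genes tested. As Sftpb and Lamp3 reached the test only through ICAM-1 KO, these counts are given as a description. ICAM-1 KO 2 was highest for 7 of the 8 genes tested, where it was highest for 24% of all genes tested. WT 2 was lowest for 5 of the 8, against 24.5% of all genes tested.

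Scgb1a1 (chr19:9083636-9087958, minus strand) encodes the club cell secretory protein, and was the most abundant of the 9 genes per length of exon in all 4 libraries, at 790, 328, 300.0 and 1230 RPKM (reads per kilobase of exon, scaled to library depth) in WT 1, WT 2, ICAM-1 KO 1 and ICAM-1 KO 2. With the longest transcript as length, Sftpc was above it in ICAM-1 KO 1. Its counts were 10248 and 4495 in WT and 3537 and 16018 in ICAM-1 KO, so that the library labelled ICAM-1 KO 1 was the lowest and ICAM-1 KO 2 the highest of the 4. The groups overlapped, and the log2 fold change was 0.43 (standard error 0.557, edgeR adjusted p = 0.651). The 2 ICAM-1 KO libraries differed 4.16-fold in normalized count. The log2 fold change was 1.12 without ICAM-1 KO 1 and -0.95 without ICAM-1 KO 2, each fit resting on a lone ICAM-1 KO library. It was 1.19 without WT 1 and -0.06 without WT 2, so the sign depended on the libraries kept.

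Scgb3a2 (chr18:43764289-43767399, plus strand), another airway secretoglobin, had 289 and 106 counts in WT, against 69 and 130 in ICAM-1 KO. The groups overlapped, with ICAM-1 KO 1 again the lowest, and the log2 fold change was -0.93 (standard error 0.533, edgeR adjusted p = 0.278). Without WT 1 it was 0.0 (adjusted p = 0.999).

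The 9 genes together took 0.0492% and 0.0224% of the counts in WT 1 and WT 2 (exact Clopper-Pearson 95% intervals 0.0484% to 0.05% and 0.0218% to 0.0229%) and 0.0677% and 0.161% in ICAM-1 KO 1 and ICAM-1 KO 2 (0.0667% to 0.0688% and 0.16% to 0.163%). These intervals cover counting error only, since PCR copies of a molecule were not marked. The makeup of this share differed between the libraries. The surfactant protein genes took 0.00682% and 0.0028% in WT and 0.0447% and 0.0925% in ICAM-1 KO, without overlap. The secretoglobin genes took 0.0387% and 0.016% in WT and 0.0145% and 0.0588% in ICAM-1 KO, with overlap.

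**Figure D2:**
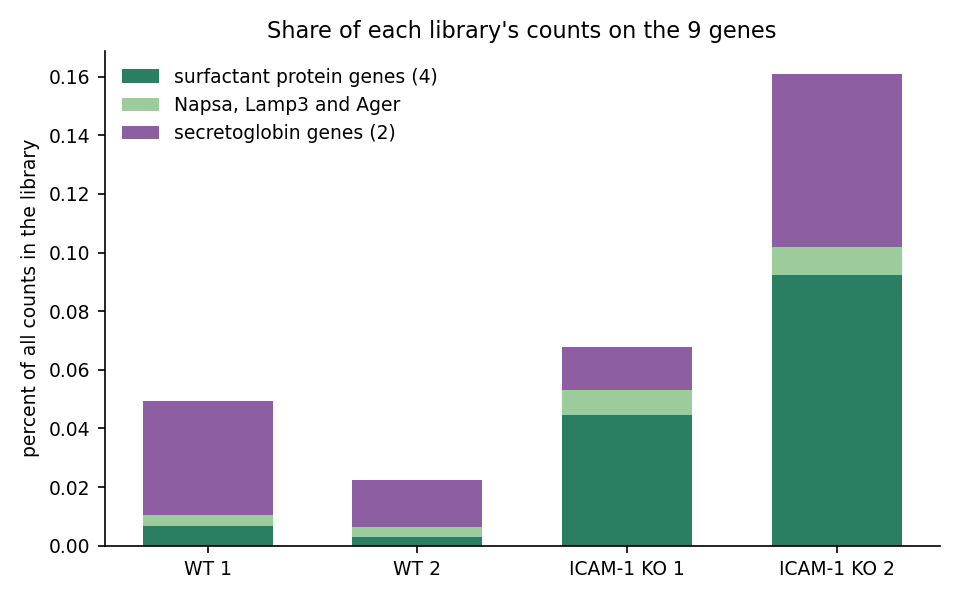
Percent of all counts of each library on the 9 genes, stacked by group of genes. The part on the 4 surfactant protein genes is 0.00682% and 0.0028% in WT and 0.0447% and 0.0925% in ICAM-1 KO, while the part on the 2 secretoglobin genes overlaps between the groups.

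Alveolar genes did not keep 1 ratio across the libraries. Sftpc had 0.76 counts per count of Sftpa1 in WT 1 (95% interval 0.689 to 0.837) and 0.0234 in WT 2 (0.0135 to 0.0377), but 2.27 in ICAM-1 KO 1 (2.18 to 2.37) and 2.44 in ICAM-1 KO 2 (2.37 to 2.51). Within ICAM-1 KO the ratio was nearly shared, whereas WT 2 held Sftpa1 at a level close to WT 1 with hardly any Sftpc. The ratio of Sftpc to Sftpd went the same way, at 5.8 and 0.279 in WT and 19.1 and 15.4 in ICAM-1 KO. The collectin genes Sftpa1 and Sftpd stayed closer to each other, with ratios of 7.63, 11.9, 8.41 and 6.33 in the 4 libraries, and Sftpc and Lamp3 had ratios of 60.9, 17, 46.1 and 49, the second resting on 1 count of Lamp3 (95% interval 2.66 to 710).

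The secretoglobin genes did not keep 1 ratio either. Scgb1a1 had 35.5, 42.4 and 51.3 counts per count of Scgb3a2 in WT 1, WT 2 and ICAM-1 KO 1, and 123 in ICAM-1 KO 2 (95% interval 104 to 148). There were 14 and 264 counts of Scgb1a1 per count of Sftpc in WT and 0.485 and 0.951 in ICAM-1 KO, the second resting on 17 counts of Sftpc. Both WT libraries thus held more Scgb1a1 than Sftpc counts, and both libraries labelled ICAM-1 KO fewer. Against Sftpa1 the range was narrower, at 10.7 and 6.18 counts of Scgb1a1 per count in WT and 1.1 and 2.32 in ICAM-1 KO, and Scgb1a1 had more counts in all 4 libraries.

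**Figure D3:**
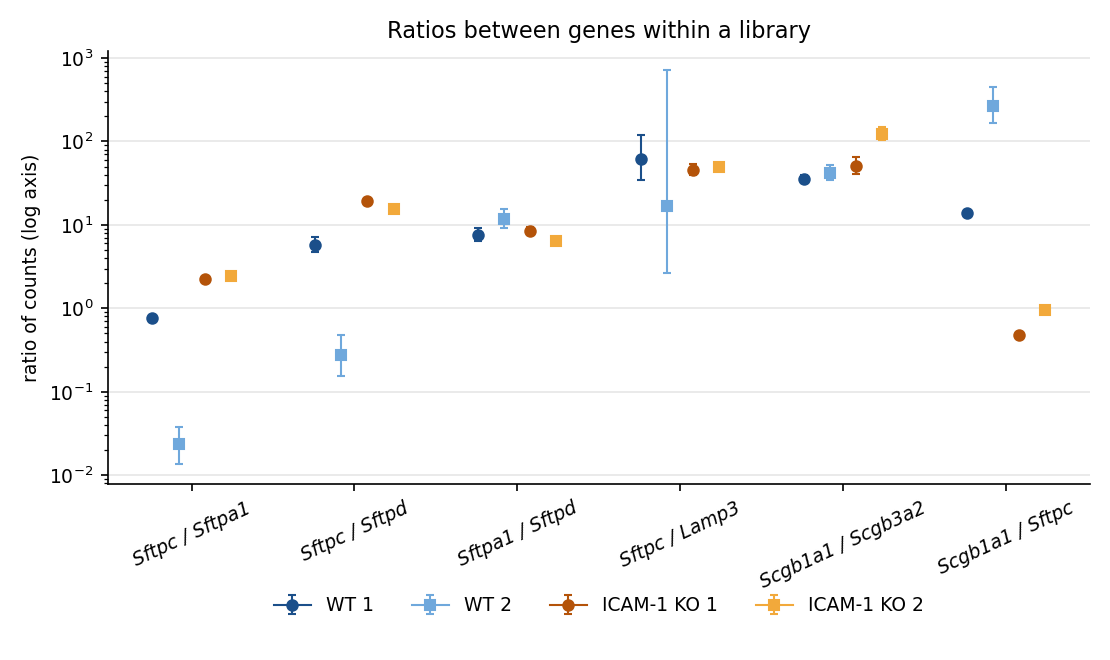
Ratio of counts between pairs of genes within each library (log axis), with 95% intervals of counting error. Sftpc over Sftpa1 is 0.76 and 0.0234 in WT and 2.27 and 2.44 in ICAM-1 KO, while Sftpa1 over Sftpd runs only from 6.33 to 11.9.

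The genes closest to Sftpc in pattern were sought among those tested that are no members, as the distance between log2 normalized counts centred on each gene's mean over 4 libraries. Slc34a2, the phosphate transporter of alveolar type 2 cells, was nearest (distance 0.493), with 39 and 0 counts in WT and 596 and 932 in ICAM-1 KO. Lad1, which encodes an anchoring filament protein of epithelia, followed at 0.554 with 31 and 0 counts in WT and 281 and 552 in ICAM-1 KO. The other 3 of the 5 nearest non-members were the immunoglobulin kappa segment Igkv4-59 (0.738), the secreted airway protein gene Bpifa1 (1.7) and Igkv8-28 (2.56). Slc34a2, Lad1, Bpifa1 and Igkv8-28 had 0 counts in WT 2, where their value is the added count of 1 alone. Their WT means were below the filter limit of 1, so they were tested only through ICAM-1 KO. The distances are a description. For comparison, Sftpb lay at 0.922 and Lamp3 at 2.16 from Sftpc, Sftpd at 4.82, Sftpa1 at 5.39 and Napsa at 6.83.

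Of 19 other alveolar type 2 genes, 13 were tested, of which 7 were called higher, 6 were not called and none was called lower, with a median log2 fold change of 1.56 against 0.01 over all genes tested. As 3 of the 7 (Slc34a2, Cxcl15 and Il33) had a WT mean below the filter limit of 1 and were tested only through ICAM-1 KO, the count and median are a description. Of the 19 listed, 1 was at 0 in WT 1, 3 in WT 2 and none in ICAM-1 KO. Slc34a2 rose by 5.34 on the log2 scale (standard error 0.552, edgeR adjusted p = 0.00098), and Ctsh, a cathepsin that processes SP-B and SP-C, by 1.18 (adjusted p = 0.00192). The 3 other most abundant genes of the list did not pass the test: Fasn, the fatty acid synthase, had a log2 fold change of -0.16 (edgeR adjusted p = 0.51), Lpcat1, which makes surfactant phosphatidylcholine, 0.35 (adjusted p = 0.0672), and the complement gene Hc 0.22 (adjusted p = 0.321). Of 17 other alveolar type 1 genes, 9 were tested and the rest, like Ager, were too low. Of the 9, 5 were called higher and none lower, with a median of 1.08. The most abundant were Hopx (1.66), Vegfa (1.23), Gprc5a (1.08) and Clic5 (1.78), all called. In WT, Hopx had 1049 and 1839 counts and Clic5 172 and 208, far above the 12 and 1 of Ager. Which cells held this RNA was not tested.

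The list of surfactant processing, lipid and clearance genes, which shares Ctsh, Lpcat1, Abca3 and Slc34a2 with the alveolar type 2 list, had 4 of 18 called higher, Slc34a2 among them, none lower and a median of 0.7. Among its most abundant genes were Calr (-0.03, edgeR adjusted p = 0.814), Pparg (-0.63, adjusted p = 0.00312, under the 2-fold limit) and Pcyt1a (-0.13, adjusted p = 0.502). None of these 3 was called, and Pparg, a lipid regulator that ILC2s and alveolar macrophages also express, had 6915 and 6979 counts in WT and 4135 and 4451 in ICAM-1 KO.

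Of 12 other club and secretory cell genes tested, 2 were called higher and none lower, with a median of 0.79. Cbr2, a carbonyl reductase of club cells, was called (1.76, standard error 0.438, edgeR adjusted p = 0.032), but not with DESeq2 (adjusted p = 0.101), with no filter (edgeR adjusted p = 0.14), with filterByExpr (0.0531), or without WT 1 (0.0665), WT 2 (0.162) or ICAM-1 KO 2 (0.88 on the log2 scale, adjusted p = 0.0744). The other gene called was Bpifa1, with 21 and 0 counts in WT and 729 and 362 in ICAM-1 KO (5.76, edgeR adjusted p = 0.00239), which was tested only through its level in ICAM-1 KO. Ldhb, Reg3g and Bpifb1 were not called. ICAM-1 KO 1 was lowest for 7 of the 12 genes and ICAM-1 KO 2 highest for 10, against 26% and 24% of all genes tested. Reg3g, an antimicrobial lectin, had 84 counts in ICAM-1 KO 1 and 1443 in ICAM-1 KO 2, and Bpifb1 101 and 1083, with 497 and 322 (Reg3g) and 641 and 387 (Bpifb1) in WT. Their log2 fold changes took the sign of the ICAM-1 KO library kept, at 1.83 (Reg3g) and 1.09 (Bpifb1) without ICAM-1 KO 1 and -2.17 and -2.23 without ICAM-1 KO 2. Muc5b, the main airway mucin, had 100 and 36 counts in WT, none in ICAM-1 KO 1 and 209 in ICAM-1 KO 2, and was chosen after its values were seen.

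**Figure D4:**
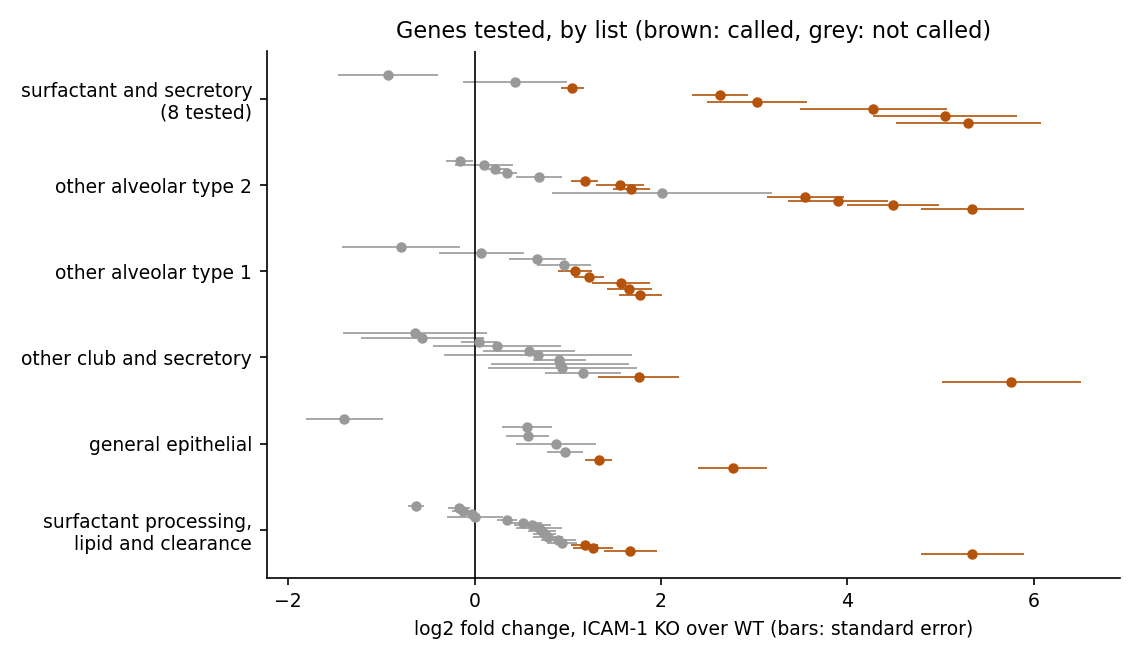
Log2 fold change, ICAM-1 KO over WT, of each gene tested in 6 lists, with bars of 1 standard error. Called genes are brown and others grey. Called were 7 of 13 other alveolar type 2, 5 of 9 alveolar type 1 and 2 of 12 other club and secretory genes, and 12, 8 and 10 genes of these lists lie right of 0.

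General epithelial genes had 2 of 7 tested called higher, with a median of 0.87. Of the 2, Tjp1 had a WT mean normalized count of 1.74, a level at which it would sum below 10. It was therefore tested only through ICAM-1 KO, and the count and median are a description. Cd9, a tetraspanin, was called (1.33, edgeR adjusted p = 0.0014), whereas Epcam had 317 and 356 counts in WT and 405 and 548 in ICAM-1 KO (0.57, adjusted p = 0.138) and Cdh1 was at 0.56 (adjusted p = 0.201). Epcam was thus present in every library, including WT 2, where Sftpc was nearly absent, but some other genes of the list were not. Cldn4 and Esrp1 had 0 counts in every library. Of the 7 tested, 6 had a positive change and 1, Grhl2, a negative one (-1.4, edgeR adjusted p = 0.0554, not called). Sdc1 had a log2 fold change of 0.97 (edgeR adjusted p = 0.014), under the 2-fold limit. Of ciliated cell genes, 3 of 13 in the table reached the filter. Sec14l3, with a WT mean normalized count of 1.38, did so only through ICAM-1 KO, since at that level it would sum below 10. It was called (2.15, edgeR adjusted p = 0.0349). That call was lost with no filter (edgeR adjusted p = 0.115) and filterByExpr (0.0559), and without WT 1 (1.71 on the log2 scale, adjusted p = 0.15), WT 2 (2.8, adjusted p = 0.078) or ICAM-1 KO 2 (1.51, adjusted p = 0.141). Mlf1 (-0.64, adjusted p = 0.0165) was under the 2-fold limit, Tppp3 (0.36, adjusted p = 0.253) was not called, and Foxj1, the defining factor of ciliated cells, had 0, 0, 9 and 9 counts.

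Among regulators of lung epithelium, 1 of 5 tested was called higher and none lower, with a median of 0.1. Cebpd, a C/EBP factor, was called (1.08, edgeR adjusted p = 0.0437), but not with no filter (0.129), filterByExpr (0.062) or the older glmQLFit (0.065), nor without WT 2 (0.71 on the log2 scale, adjusted p = 0.172) or ICAM-1 KO 2 (0.94, adjusted p = 0.106). Klf5 had -0.85 (adjusted p = 0.0327, under the 2-fold limit), and Etv5 (0.1, adjusted p = 0.867) and Foxa1 (0.27, adjusted p = 0.614) were not called. Nkx2-1, the factor that defines lung epithelium, had 8 and 0 counts in WT and 8 and 44 in ICAM-1 KO and was too low to be tested.

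Beside each gene in the genome, the nearest genes of the count table on both sides were examined. Of 16 such genes that are no members of the group, 9 were tested and 1 was called, Iglv2, an immunoglobulin segment 392518 bases from Lamp3. Bmp1, which lies 714 bases from Sftpc, had 200 and 151 counts in WT and 141 and 189 in ICAM-1 KO (log2 fold change -0.02, edgeR adjusted p = 0.971). Lgi3, on the other side of Sftpc and also an alveolar type 2 gene, had 3 and 0 counts in WT and 51 and 102 in ICAM-1 KO and was not tested.

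Markers of other cells moved in the same comparison, and their part in these results was not tested. In summed normalized count, 16 endothelial genes ran from 336 to 355 in WT and from 884 to 912 in ICAM-1 KO, with 14 of 16 tested called higher and none at 0 in any library. The alveolar macrophage list went from 504 to 750 in WT to 1380 to 1790 in ICAM-1 KO, with 11 of 15 called higher, and the monocyte and macrophage list from 535 to 542 to 915 to 1120, with 5 of 11. The neutrophil list had 6 of 8 called higher, the T cell list 5 of 10, the B cell list 4 of 11, the dendritic cell list 3 of 13, the fibroblast and smooth muscle list 1 of 9, the eosinophil list 2 of 5 higher and 2 lower, and the erythroid list 0 of 2. Over all genes tested, 4.94% were called higher and 0.538% lower. Some genes called higher in the alveolar macrophage, endothelial, neutrophil, dendritic cell and eosinophil lists would sum below 10 at their WT level. These were tested only through ICAM-1 KO, so the counts of calls are a description. ILC2 genes summed to 6550 and 7090 in WT and to 6110 and 6310 in ICAM-1 KO, with none of 13 called higher and 1 lower, and all 13 were detected in every library. WT 1 was 42.4-fold above WT 2 for Sftpc. In these sums, WT 1 was below WT 2 for the alveolar macrophage, B cell, T cell, neutrophil, fibroblast and smooth muscle, and ILC2 lists. WT 1 was above WT 2 for the endothelial, monocyte and macrophage, eosinophil (105 against 77.9) and erythroid (39.9 against 31.8) lists. The dendritic cell list was at 1230 in both. Such sums lean on abundant genes, and the cause of the spread of Sftpc was not tested.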

How the data were processed

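RNA of sorted activated lung ILC2s was measured in 2 WT and 2 ICAM-1 KO libraries, grouped by their labels. The members and lists were chosen with earlier results of these data known. Per the study's methods, the authors made cDNA with a SMARTer low input kit, sequenced it on an Illumina NextSeq system, mapped reads to mm10 (STAR, GENCODE M20) and quantified and normalized them in Partek by the upper quartile. The deposited expected counts (22558 genes) are estimates that split reads between genes and are not normalized, so that near-identical or overlapping genes can share reads, and whether counting used strand is not given in the sources used here. The deposited normalized signal (18324 genes) equals the count plus 1, times 1 factor per library. The kit amplifies small RNA inputs, and the counts have no molecular identifiers.

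Expected counts were rounded and tested with edgeR 4.0.16 (quasi-likelihood F-test, glmQLFit with legacy FALSE; R 4.3.3) under upper quartile factors, on all 4 libraries with no covariate. Genes entered if their normalized counts averaged 1 or more and summed to 10 or more (11711 genes), and p-values were adjusted by Benjamini-Hochberg over all of them. Calls required both a 2-fold change and an adjusted p under 0.05. The test was tried on simulated counts with known changes. RPKM values were computed here from the counts and the exon lengths of GENCODE M21. Intervals of ratios and shares are exact. Promoters came from RefSeq (GRCm38.p6).

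Named genes were the 9 members, the 4 most abundant tested genes of each epithelial list (1 of them is not reported here), the 5 nearest to Sftpc, Icam1, and the 2 most abundant of each list of other cells; of the last, counts and sums are given instead of names. Abca3, Nkx2-1, Foxj1, Lgi3, Muc5b and the genes beside members were named outside the list rule or after their values were seen. The same holds for Cxcl15, Il33, Cldn4, Esrp1, Grhl2 and Tjp1. The alternatives were TMM factors, DESeq2 1.42.0, other filters, limma 3.58.1 on log2(normalized count + 1 or 0.1), the older glmQLFit, a replicate block and leaving out each library.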

Additional observations from a re-analysis of the deposited data

How the results depend on the processing

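Calls of single genes rested on 2 pools per group, and several depended on a setting; the cause was not tested. With no filter on low counts, genes called fell to 273 higher and 39 lower over all genes tested, from 578 and 63, and leaving out 1 library gave 338 to 596 higher and 48 to 80 lower. Members called higher were 6 in the reported fit and 4 to 7 without 1 library. Sftpb lost its call with DESeq2 (4.23, adjusted p = 0.3), with no filter (4.23, edgeR adjusted p = 0.0706) and with the older glmQLFit (4.24, edgeR adjusted p = 0.0529), and its log2 fold change ran from 3.25 to 11.54 without 1 library, the highest being against a WT library with 0 counts and so no bound. With no filter, Sftpc (5.0, edgeR adjusted p = 0.0524) and Sftpd (2.98, edgeR adjusted p = 0.068) were also lost. Without 1 library, Sftpc ran from 4.06 to 9.54, Sftpd from 2.15 to 3.67, Lamp3 from 4.4 to 7.88, Sftpa1 from 2.04 to 3.05, Napsa from 0.99 to 1.11, Scgb1a1 from -0.95 to 1.19 and Scgb3a2 from -1.5 to 0.0, and the lone library left in a group is assumed to vary like the other pair. Other lung epithelial genes called lower were 0 in the reported fit, 1 with DESeq2 and 0 to 6 without 1 library.

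Among genes that were not called, the sign turned for Bpifb1 (limma -0.44 and -0.53 with pseudocounts of 1 and 0.1, and -2.23 to 1.09 without 1 library), for Reg3g (limma -0.04 and -0.14, and -2.17 to 1.83), and without 1 library for Calr (-0.08 to 0.01), Etv5 (-0.22 to 0.51), Fasn (-0.36 to 0.03), Foxa1 (-0.01 to 0.61), Ldhb (-0.11 to 0.19) and Pcyt1a (-0.29 to 0.02).

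With the replicate number as a block, members called higher stayed at 6, Sftpc was at 5.15 (edgeR adjusted p = 0.00351) and Bpifb1 turned to -0.05. Libraries that share a number did not deviate together over all genes tested (correlation -0.0582). With 2 libraries per group, the other pairing must give the same value with the opposite sign. A pairing that touches only some genes was not tested.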
